A study of Sus scrofa with 20 samples.

Results

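The genes described here are the mitogen-activated protein (MAP) kinases, the kinases that activate them, and the phosphatases that act on phosphotyrosine, phosphoserine and phosphothreonine. A gene was taken when its single platform symbol began with MAPK, MAP2K, MAP3K, MAP4K, DUSP, PPP1 to PPP6, PTPN or PTPR, which gave 77 of the 6765 genes with a single symbol. They were measured by 122 probe sets, and 33 of the 77 genes had several, of which the one with the highest mean over all 20 arrays stood for the gene. The symbol rule also took in partners with these names that are neither kinases nor phosphatases, such as MAPKAP1, PTPRCAP and the regulatory subunits of the protein phosphatases.

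Kidney RNA of 20 pigs was hybridised to Affymetrix arrays, 1 array per animal. The 10 animals of the ND group (neurologic death) were brought to ND by filling a subdural balloon, and otherwise had what the controls had. The 10 Control animals had a burr hole, catheters and anaesthesia. All animals were ventilated for 6 h and were given 0.9% saline in boluses of 2 cc/kg where needed to hold mean arterial pressure above 35 mmHg, and the kidney specimens were then frozen. Strain, age and sex are not given in the sources used here. The comparison asks which kinase and phosphatase transcripts differ in the kidney 6 h after ND.

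Of the 12 kidney genes listed as tissue markers, 4 had a probe set here, LRP2, AQP1, KCNJ1 and SLC22A6, and all were above background on every array. Array medians were 5.27 ± 0.07 in ND animals and 5.18 ± 0.05 in Control animals (SD, n = 10 each; two-sided permutation p = 0.00656). The spiked hybridization controls averaged 11.63 in ND and 11.88 in Control animals (permutation p = 0.00308), and the GAPDH signal gap between 3′ and 5′ probe sets averaged 1.67 and 1.85 in the same order (permutation p = 0.0858). The same gap for actin was larger, at 4.01 in ND and 4.14 in Control animals (permutation p = 0.681). Their part in the results below was not tested. Values are log2 signals per probe set, differences are ND minus Control with the standard error (SE) of the limma fit, and adjusted p-values are Benjamini-Hochberg adjusted over all 23999 probe sets. The threshold was 0.05. "Background" is 2.79, the top reading among 23 control probe sets for tag and tryptophan sequences.

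MAP kinase cascades pass a signal through 3 layers of kinases, each activated by phosphorylation from the layer above, and end in kinases that phosphorylate transcription factors. Dual-specificity phosphatases (DUSPs) remove the activating phosphates from MAP kinases, and several of their genes are themselves induced by the pathway, which makes them feedback inhibitors. The serine/threonine phosphatases PP1 and PP2A draw their substrate choice from regulatory subunits, calcineurin is switched on by calcium and calmodulin, and protein tyrosine phosphatases oppose tyrosine kinases at receptors and in leukocytes.

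In kidneys of ND animals 1 of the 77 genes fell and 4 rose. The phosphatase DUSP14 fell to 0.347 of the Control level. The catalytic calcineurin subunit PPP3CA rose 1.35-fold, the PP1 inhibitor PPP1R14B 1.87-fold, the receptor phosphatase PTPRA 1.31-fold and the CD45-associated protein PTPRCAP 1.66-fold. None of the 22 kinases and kinase partners passed in limma, where 5 (22.7%) had an unadjusted p under 0.05, against 29.9% of the 77 genes and 30.1% of all genes. The 5 genes that passed are 6.49% of the 77, against 9.99% of all 6765 genes. By direction, 5.19% rose against 5.44% of all genes, and 1.30% fell against 4.55%. The groups did not overlap for 2 of the 77 genes (2.60%), DUSP14 and PPP3CA, against 0.591% of all genes. The median difference was 0.06 over the 77 genes and -0.02 over all genes. Of the 77 differences 47 were above 0 (61.0%), against 45.7% for all genes. On every array 842 of all 6765 genes read under background, as did 5 of the 77. DUSP14 alone differed by more than 1 on the log2 scale, as did 2.91% of all genes. After arrays were aligned on a common median, 4 of the 77 were higher and 11 lower, against 404 and 1644 of all genes. All 5 genes above stayed on their side under that scaling and under quantile normalization.

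**Figure D1:**
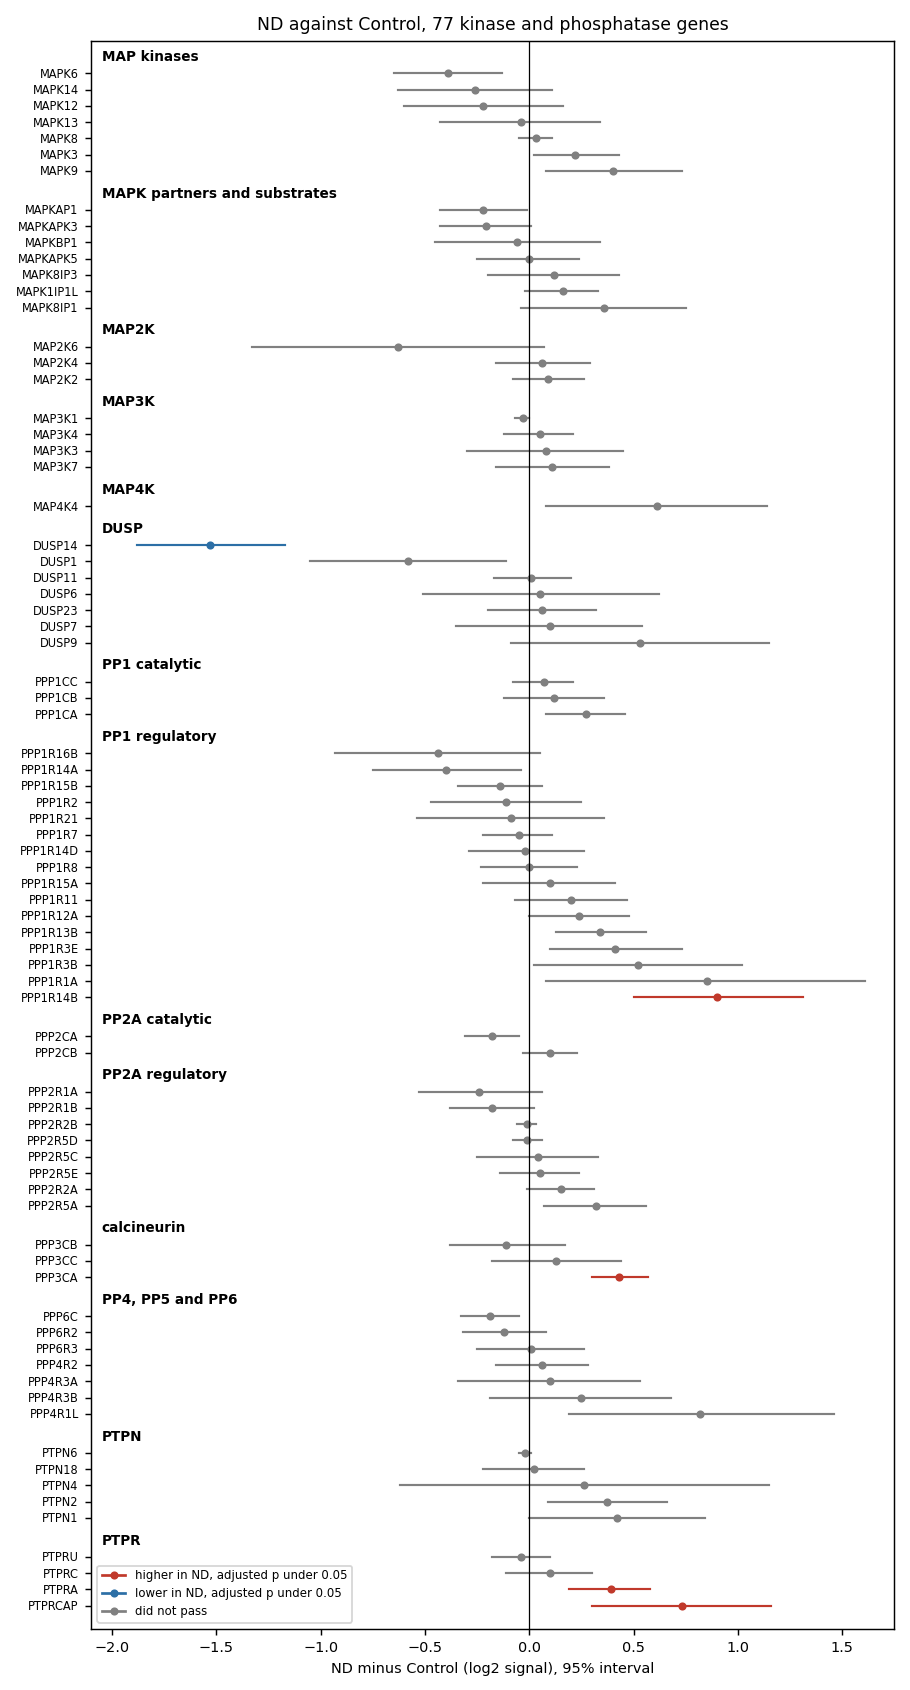
Difference between ND and Control animals (log2 signal, x axis) for each of the 77 genes, grouped by family, with points for the estimate and lines for its 95% interval (n = 10 animals per group). DUSP14, at -1.53, lies apart on the left, and PPP1R14B (0.90), PPP3CA (0.43), PTPRA (0.39) and PTPRCAP (0.73) are the coloured genes on the right.

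DUSP14, a small dual-specificity phosphatase that acts on MAP kinases and restrains T cell receptor signalling, had the largest difference of the 77 genes. ND animals read 6.98 at the lowest, 7.65 at the median and 7.90 at the highest. Control animals read 8.19, 9.18 and 9.80. Every ND animal lay below every Control animal, the nearest being ND_86 and Control_199. The difference was -1.53 ± 0.17 (SE), with an adjusted p of 2.32e-05, and it ranged from -1.63 to -1.45 as each animal was left out in turn. DUSP14 had 1 probe set, so no second measurement of the transcript was at hand.

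The other 6 measured DUSP genes did not pass. DUSP1 is the nuclear MAP kinase phosphatase and both an immediate early gene and a known glucocorticoid target. In ND animals it read 9.18, 10.04 and 10.80 (lowest, median, highest), and in Control animals 9.86, 10.66 and 11.23. The groups overlapped over most of their range. Its difference was -0.58 ± 0.22 (SE; 95% interval -1.05 to -0.11; adjusted p = 0.110), and it passed after arrays were aligned on a common median (-0.67, adjusted p = 0.0469). That scaling called 24.3% of all genes lower, against 4.55% without it. DUSP6, the cytoplasmic phosphatase of ERK and a feedback gene of that pathway, differed by 0.05 ± 0.27 (SE; 95% interval -0.51 to 0.62; adjusted p = 0.898). Its ND readings spread more widely than the group difference, between 9.10 in ND_31 and 11.30 in ND_47, with Control readings between 9.47 and 11.18. Its dimmer probe set differed by -0.31 (adjusted p = 0.332). DUSP7, which also acts on ERK, was at 0.10 (adjusted p = 0.757), DUSP9 at 0.53 (adjusted p = 0.225), the small phosphatase DUSP23 at 0.06 and DUSP11, which acts on RNA rather than on MAP kinases, at 0.01. Within this family the differences thus ran between -1.53 and 0.53, with 5 of 7 above 0 and a median of 0.05.

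**Figure D2:**
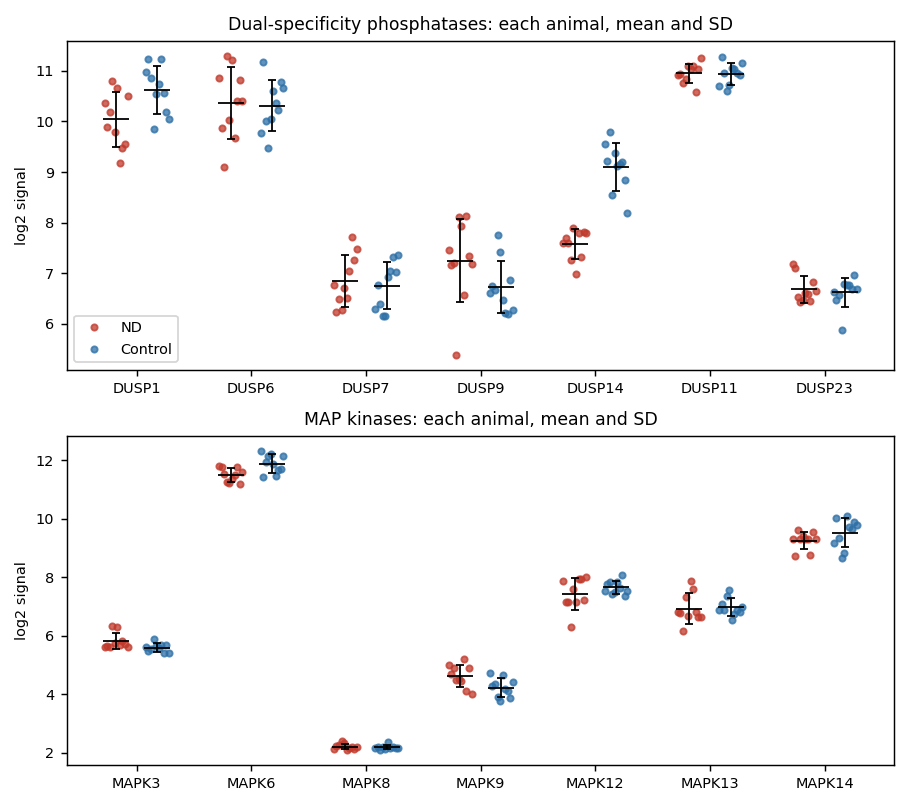
Log2 signal of each animal for the 7 dual-specificity phosphatases (upper panel) and the 7 MAP kinases (lower panel), ND left of Control for each gene, with black lines for the mean and SD (n = 10 per group). DUSP14 is separated between groups (7.58 in ND and 9.10 in Control animals on average), and the groups overlap for all other genes shown.

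Of the 7 MAP kinases none passed, 3 having an unadjusted p under 0.05. MAPK6 (ERK3, an atypical MAP kinase) had the smallest p. It read 11.19, 11.50 and 11.79 in ND animals (lowest, median, highest) and 11.42, 11.90 and 12.32 in Control animals. All 10 ND animals were below the Control mean, but the ranges overlapped. The difference was -0.39 ± 0.12 (SE; adjusted p = 0.0595), and it passed without Control_134 (adjusted p = 0.0307), Control_187 (0.0353) or ND_193 (0.0432). It also passed with a common array median (-0.48, adjusted p = 0.0230). With any other animal left out MAPK6 did not pass (adjusted p up to 0.104), nor with a term for animal number (-0.46, adjusted p = 0.153). Its dimmer probe set was at -0.31 (adjusted p = 0.249). MAPK3 (ERK1) differed by 0.22 ± 0.10 (SE; adjusted p = 0.145), with ND readings from 5.61 to 6.34 and Control readings from 5.40 to 5.89. MAPK9, a JNK gene, was at 0.40 (adjusted p = 0.109). Among the p38 genes, MAPK14 was at -0.26 ± 0.18 (SE; adjusted p = 0.299), MAPK12 at -0.22 (adjusted p = 0.391) and MAPK13 at -0.04 (adjusted p = 0.877). MAPK8, the other JNK gene measured, read under background on all 20 arrays, between 2.09 and 2.39, so its probe set gave no information on a difference.

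The kinases above them did not pass either. MAP2K2 (MEK2, which activates ERK) was at 0.09 (95% interval -0.08 to 0.26; adjusted p = 0.440) and MAP2K4, which activates JNK and p38, at 0.06 (95% interval -0.16 to 0.29; adjusted p = 0.689). MAP2K6, an activator of p38, was above background on 3 ND and 5 Control arrays. Its ND readings lay between 2.52 and 3.66 and its Control readings between 2.58 and 5.75, the last from Control_156, with a difference of -0.63 ± 0.34 (SE; adjusted p = 0.208). The 3 MAP3K genes above background, MAP3K3, MAP3K4 and MAP3K7 (TAK1, which relays cytokine receptor signals), differed by 0.08, 0.05 and 0.11, with adjusted p-values of 0.539 to 0.783. MAP3K1 read under background on every array (difference -0.03, adjusted p = 0.187). With a common array median it was nevertheless called lower (-0.12, adjusted p = 0.0490). MAP4K4, the only MAP4K gene measured and a kinase upstream of JNK, read 6.78 to 9.38 in ND animals and 6.22 to 7.32 in Control animals. The highest ND reading came from ND_47. The difference was 0.61 ± 0.25 (SE; adjusted p = 0.130), and 0.41 without ND_47.

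Partners and substrates of the MAP kinases varied by small amounts around 0. Of 7 such genes none passed and 1 had an unadjusted p under 0.05, namely MAPKAP1 (an mTOR complex subunit rather than a MAP kinase substrate) at -0.22 ± 0.10 (SE; adjusted p = 0.150). MAPKAPK3, a kinase activated by p38, was at -0.21 (adjusted p = 0.192). MAPKAPK5 was at 0.00 with a 95% interval from -0.25 to 0.24. The JNK scaffold genes MAPK8IP1 and MAPK8IP3 were at 0.36 (adjusted p = 0.205) and 0.12 (adjusted p = 0.592).

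Calcineurin, the calcium-activated phosphatase that dephosphorylates NFAT, had a rise in 1 of its 3 measured catalytic genes. PPP3CA read 9.53, 9.81 and 10.14 in ND animals (lowest, median, highest). In Control animals it read 9.14, 9.40 and 9.53. The lowest ND reading (ND_86) and the highest Control reading (Control_184) were the same after rounding, so the groups did not overlap by only a very small margin. The difference was 0.43 ± 0.06 (SE), with an adjusted p of 0.000497 and all 10 ND animals above the Control mean. The other 2 PPP3CA probe sets rose as well, by 0.49 (adjusted p = 0.000165) and 0.48 (adjusted p = 0.000984). The groups did not overlap in the first of these. They overlapped in the second, where ND readings began at 8.31 and Control readings reached 8.40. The rise of PPP3CA is small, and it did not pass when the test required a change beyond 1.2-fold (adjusted p = 0.295).

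PPP3CB did not pass, with a difference of -0.11 ± 0.13 (SE; 95% interval -0.38 to 0.17; adjusted p = 0.571). Its 2 dimmer probe sets were at 0.28 (adjusted p = 0.131) and -0.30 (adjusted p = 0.555), so the 3 probe sets of this gene pointed in different directions. PPP3CC was at 0.13 ± 0.15 (SE; 95% interval -0.18 to 0.44; adjusted p = 0.536). Whether PPP3CA differs from these 2 genes in its response was not tested. Of 5 measured calcineurin partners and NFAT genes none passed in limma, and 0 had an unadjusted p under 0.05. CALM2, a calmodulin gene, was at 0.14 (adjusted p = 0.171) and CALM3 at 0.12 (adjusted p = 0.544). RCAN1, a calcineurin inhibitor that NFAT induces, was at -0.65 ± 0.46 (SE; adjusted p = 0.322) and varied between 8.96 and 12.53 in ND animals and between 8.93 and 12.16 in Control animals.

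**Figure D3:**
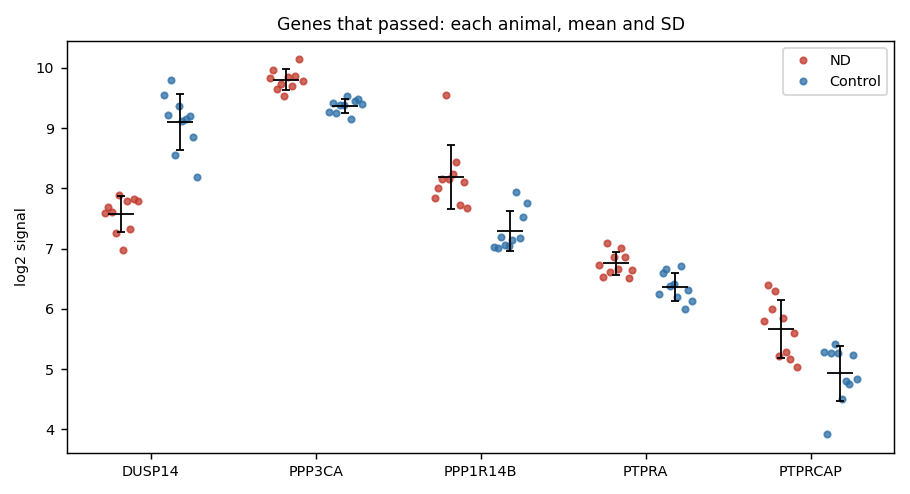
Log2 signal of each animal for the 5 genes that passed, ND left of Control for each gene, with black lines for the mean and SD (n = 10 per group). DUSP14 is lower in every ND animal, PPP3CA is higher in every ND animal by a narrow margin, and the ranges of PPP1R14B, PTPRA and PTPRCAP overlap, with ND_47 highest for PPP1R14B at 9.55.

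The 3 catalytic genes of PP1, a phosphatase with many substrates, all had differences above 0 and none passed. PPP1CA was at 0.27 ± 0.09 (SE; adjusted p = 0.0796), with ND readings from 9.50 to 10.14 and Control readings from 9.10 to 9.80, and it passed without ND_198 (adjusted p = 0.0458). Leaving out any other animal gave no call (adjusted p up to 0.137). PPP1CB was at 0.12 (95% interval -0.12 to 0.36) and PPP1CC at 0.07 (95% interval -0.08 to 0.21).

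Among 16 PP1 regulatory genes 1 rose and 15 did not pass. PPP1R14B encodes an inhibitor of PP1, of the same family as the smooth muscle inhibitor PPP1R14A. It read 7.68, 8.13 and 9.55 in ND animals and 7.0, 7.16 and 7.94 in Control animals (lowest, median, highest). All 10 ND animals lay above the Control mean, and the ranges overlapped between 7.68 and 7.94. The difference was 0.90 ± 0.19 (SE; adjusted p = 0.00763), and without ND_47, the highest animal, it was 0.75 (adjusted p = 0.00214). The call was lost with a term for animal number (0.74, adjusted p = 0.134), and among the higher-numbered animals alone the difference was 0.33 (limma adjusted p = 0.541). A second probe set of PPP1R14B read under background on all arrays. PPP1R14A was at -0.40 ± 0.17 (SE; adjusted p = 0.136), in the other direction, and it passed with a common array median. PPP1R12A, the subunit that targets PP1 to myosin, was at 0.24 (adjusted p = 0.173). Of the 7 measured smooth muscle, mesangial and fibroblast markers 1 rose, PDGFRB (0.65), and their mean level ran from 7.19 to 9.27 in ND animals and from 7.16 to 8.35 in Control animals. The part of such cells in PPP1R14B was not tested.

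The next smallest p belonged to PPP1R13B (an ASPP-family partner of p53), at 0.34 ± 0.10 (SE; adjusted p = 0.0513). It read 7.56 to 8.47 in ND animals and 7.34 to 7.79 in Control animals, and it passed without Control_199 (adjusted p = 0.0355), ND_31 (0.0336) or ND_47 (0.0464). Without any 1 of the other animals PPP1R13B did not pass (adjusted p up to 0.0887). Some genes chosen after their values were seen show how wide the spread was. PPP1R1A, a PP1 inhibitor activated by protein kinase A, differed by 0.85 ± 0.36 (SE; adjusted p = 0.138), with ND readings from 8.37 to 10.85 and Control readings from 7.75 to 9.87. PPP1R3B, which targets PP1 to glycogen, was above background on 4 ND arrays and on none of the Control arrays, the highest being ND_47 at 4.85. Its measured means were 2.90 in ND and 2.39 in Control animals (adjusted p = 0.160). The ND median of 2.58 was itself under background, so this probe set gives no lower bound for a fold change. PPP1R15A (GADD34), which directs PP1 to the translation factor eIF2α under stress, was at 0.10 (95% interval -0.22 to 0.41; adjusted p = 0.658), and its constitutive relative PPP1R15B at -0.14 (adjusted p = 0.301).

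PP2A, the other abundant serine/threonine phosphatase, had no gene that passed among 2 catalytic and 8 regulatory genes, of which 1 catalytic and 1 regulatory gene had an unadjusted p under 0.05. PPP2CA, a catalytic subunit, was at -0.18 ± 0.06 (SE; adjusted p = 0.0810), with ND readings from 11.68 to 12.14 and Control readings from 11.86 to 12.22. It passed without Control_199 (adjusted p = 0.0396) or ND_86 (0.0490), and with a common array median (-0.27, adjusted p = 0.00389). It also passed with a term for animal number (-0.31, adjusted p = 0.0171). With any other animal left out PPP2CA did not pass (adjusted p up to 0.129), nor with quantile normalization (-0.14, adjusted p = 0.145). The second catalytic gene, PPP2CB, was at 0.10 (95% interval -0.03 to 0.23). PPP2R5A, a regulatory B subunit, was at 0.32 ± 0.12 (SE; adjusted p = 0.0991) and passed without Control_199 (adjusted p = 0.0261). Leaving out any other animal gave no call (adjusted p up to 0.163). The scaffold genes PPP2R1A and PPP2R1B were at -0.24 (adjusted p = 0.243) and -0.18 (adjusted p = 0.202). PPP2R2B and PPP2R5D read under background on all arrays.

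Among 7 genes of PP4 and PP6, relatives of PP2A, none passed and 2 had an unadjusted p under 0.05. PPP6C, the PP6 catalytic subunit, was at -0.19 ± 0.07 (SE; adjusted p = 0.0896), with ND readings from 9.88 to 10.50 and Control readings from 10.25 to 10.64, and it passed without ND_194 (adjusted p = 0.0306). Leaving out any other animal gave no call (adjusted p up to 0.145). PPP4R1L was at 0.82 ± 0.30 (SE; adjusted p = 0.101), with an SD of 0.96 in ND animals and 0.23 in Control animals. This gene was also singled out after its values were seen. Of the 6 measured inhibitors and partners of these phosphatases outside the families 2 rose (33.3%, against 5.44% of all genes) and none fell. These were SET, a PP2A inhibitor (0.35 ± 0.07, SE; adjusted p = 0.00497), whose ND readings of 11.95 to 12.67 and Control readings of 11.69 to 11.90 did not overlap, and ARPP19, which inhibits PP2A in mitosis once phosphorylated (0.40 ± 0.07, SE; adjusted p = 0.00112). PPME1, the PP2A methylesterase, was at -0.24 (adjusted p = 0.0786).

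Of the 9 genes with PTPN and PTPR names 8 encode tyrosine phosphatases, of which PTPRA rose, and the other is PTPRCAP, which rose as well. PTPRA, a receptor phosphatase that activates SRC-family kinases by removing an inhibitory phosphate, read 6.52, 6.70 and 7.09 in ND animals (lowest, median, highest) and 6.0, 6.35 and 6.72 in Control animals. All 10 ND animals lay above the Control mean, though the ranges overlapped. The difference was 0.39 ± 0.09 (SE; adjusted p = 0.0170). With a term for animal number PTPRA no longer passed (0.36, adjusted p = 0.149).

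PTPRCAP encodes a small membrane protein that binds the leukocyte phosphatase CD45 and is not a phosphatase itself. ND animals read 5.04, 5.69 and 6.40, and Control animals 3.92, 5.03 and 5.41 (lowest, median, highest). The difference was 0.73 ± 0.21 (SE; adjusted p = 0.0359). With a term for animal number it was 0.42 (adjusted p = 0.489). The call was also lost without ND_01, ND_22, ND_31, ND_47, ND_92 or ND_194 or Control_184, Control_187 or Control_190 (adjusted p 0.0504 to 0.0649). PTPRC, the CD45 gene itself, was at 0.10 ± 0.10 (SE; 95% interval -0.11 to 0.30; adjusted p = 0.482), on a dim probe set that read 3.27 to 4.09 in ND animals and 3.29 to 3.74 in Control animals.

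Of 6 measured general leukocyte markers (PTPRC among them) 5 rose (83.3%, against 5.44% of all genes): CD53 (1.03), LAPTM5 (1.11), CORO1A (1.34), ITGB2 (0.83) and LCP1 (0.86). The mean of those 5 lay between 6.90 and 8.59 in ND animals and between 6.06 and 7.11 in Control animals. Across the 10 ND animals PTPRCAP correlated with that mean with a Pearson r of 0.88 (permutation p = 0.00128, 0.00512 adjusted over 4 relations) and a Spearman rho of 0.90 (permutation p = 0.000580, adjusted 0.00232). Without the 2 animals farthest from the median r was 0.70. The higher-numbered ND_193, ND_194 and ND_198 had the lowest leukocyte means of the ND animals (7.31, 7.31 and 6.90). ND_198 and ND_193 also had the lowest PTPRCAP readings (5.04 and 5.16). The part of animal number in this correlation was not tested. In the 10 Control animals r was 0.60 (permutation p = 0.0781, adjusted 0.104), rho 0.58 (permutation p = 0.0885, adjusted 0.177) and r without 2 animals 0.80. Of 7 measured T and NK cell markers 4 rose (57.1%), among them GNLY (1.49), CD8A (1.09) and LCK (1.13). Monocyte and macrophage markers went both ways, with 2 of 7 higher, CTSS (0.85) and TYROBP (0.68), and 3 lower, CD163 (-2.04), MRC1 (-0.87) and CD14 (-0.54). The part of leukocytes in the rise of PTPRCAP was not tested. In whole tissue, more cells of a type and more RNA per cell cannot be told apart. The same correlation for DUSP14 with the mean of 13 listed glucocorticoid targets gave r = 0.10 in ND animals (permutation p = 0.726, adjusted 0.726; rho -0.15, p = 0.683, adjusted 0.683; r without 2 animals -0.09). In Control animals it gave r = 0.68 (permutation p = 0.0635, adjusted 0.104; rho 0.50, p = 0.143, adjusted 0.191; r without 2 animals 0.70).

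**Figure D4:**
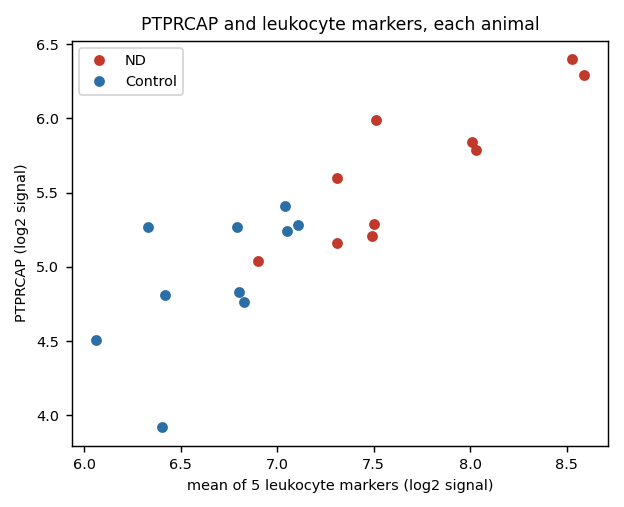
PTPRCAP log2 signal (y axis) against the mean log2 signal of 5 leukocyte markers (x axis), 1 point per animal, ND and Control in different colours. ND_22 and ND_47 are at the upper right (6.40 and 6.29 for PTPRCAP), and the Control animals fill the lower left, with Control_134 lowest at 3.92.

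The non-receptor tyrosine phosphatases did not pass in any of 5 genes, 2 of which had an unadjusted p under 0.05. PTPN2, which acts on JAK and STAT proteins, was at 0.37 ± 0.14 (SE; adjusted p = 0.0983), with ND readings from 8.85 to 9.81 and Control readings from 8.57 to 9.47. Its dimmer probe set was at -0.26 (adjusted p = 0.428). PTPN1, which acts on the insulin and leptin receptors, was at 0.42 ± 0.20 (SE; adjusted p = 0.168). PTPN18 was at 0.02 and PTPN4 at 0.26, with a 95% interval from -0.62 to 1.15 for PTPN4. PTPN6 (SHP-1, a phosphatase of blood cells) read under background on all 20 arrays. The receptor phosphatase PTPRU was above background on 3 ND and 2 Control arrays and differed by -0.04. Among 12 measured kinases and STAT genes listed as substrates or partners of these phosphatases 4 rose and none fell: TYK2 (0.49 ± 0.09, SE; adjusted p = 0.00271), STAT5A (0.68 ± 0.13, SE; adjusted p = 0.00409), LCK (adjusted p = 0.0116) and FYN (0.92 ± 0.21, SE; adjusted p = 0.0121). In their list 33.3% of the genes rose, against 5.44% of all genes. The median difference of the list was 0.47, against -0.02 over all genes. LCK is a T cell kinase and is also on the T and NK cell list.

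Genes upstream and downstream of the MAP kinases were counted for comparison. Their single values with a term for animal number were not examined. Of 18 measured receptors, adaptors and other genes at the input of the pathway 1 rose (PDGFRB, the PDGF receptor), and YWHAZ, a 14-3-3 protein, was at 0.61 (adjusted p = 0.0505). CDC42, also on that list, was at 0.23 (adjusted p = 0.0944). The share that rose was 5.56%, against 5.44% of all genes. Of 17 measured kinases and transcription factors at the output of the pathway 3 rose (17.6%, against 5.44% of all genes) and none fell. They were the immediate early genes FOS (1.72 ± 0.36, SE; adjusted p = 0.00613), EGR1 (1.89 ± 0.49, SE; adjusted p = 0.0223) and IER2 (0.79 ± 0.21, SE; adjusted p = 0.0255). FOS read 10.05 to 12.12 in ND animals and 7.95 to 10.82 in Control animals, so that its ranges overlapped. JUN (0.55, adjusted p = 0.225) and ETV5 (-0.50, adjusted p = 0.131) did not pass. Of 2 measured inhibitors of the pathway outside the DUSP family LRIG1 fell (-0.82 ± 0.20, SE; adjusted p = 0.0164) and PEBP1, which binds RAF, was at 0.00 (adjusted p = 0.994). PEBP1 is also counted among the 18 input genes. Of 13 measured glucocorticoid targets 9 fell (69.2%, against 4.55% of all genes). Those with the smallest p were FKBP5 (-3.32), TSC22D3 (-2.26) and PER1 (-2.56). The 1 that rose was the glucocorticoid receptor gene NR3C1 (0.85, adjusted p = 0.0124). NR3C1 is part of the mean of the 13, here and in the correlation with DUSP14 above. The mean level of the 13 ran from 8.88 to 9.50 in ND animals and from 10.22 to 10.89 in Control animals. That list was known from earlier results of these data to fall, and no relation of DUSP1 to it was computed.

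The median SD of the 77 genes was 0.28 in ND and 0.27 in Control animals, against 0.29 and 0.23 over all genes. Their SD was larger in ND animals for 43 of the 77 genes (55.8%), against 65.4% of all genes. ND_47 was the highest or lowest ND animal for 32 of the 77 genes (41.6%), and for 48.0% of all genes. Of the Control animals Control_156 was an extreme most often, for 25 genes (32.5%), and for 22.6% of all genes. Of the 77 genes 67 were above background on every array and 5 on none.

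Animal numbers were unevenly spread, with 7 ND animals but 1 Control animal numbered up to 100. With a term for that split, 3 of the 77 genes passed (DUSP14, PPP3CA and PPP2CA), against 2.78% of all genes. DUSP14 was then at -1.57 ± 0.22 (SE; adjusted p = 0.000934) and PPP3CA at 0.53 ± 0.08 (SE; adjusted p = 0.00107). PPP1R14B (0.74, adjusted p = 0.134), PTPRA (0.36, adjusted p = 0.149) and PTPRCAP (0.42, adjusted p = 0.489) lost their call. In a subset of higher-numbered animals, ND_193 to ND_198 (3 animals) and Control_184 to Control_199 (5 animals), none of the 77 passed in limma. Of all genes only 0.148% were higher and 0.177% lower in that fit. In those animals DUSP14 read 7.32 to 7.82 in ND and 8.19 to 9.21 in Control animals without overlap (-1.26, limma adjusted p = 0.121). PPP3CA read 9.78 to 10.14 in ND and 9.14 to 9.53 in Control animals, also without overlap (0.53, limma adjusted p = 0.131). The groups did not overlap for 8 of the 77 genes (10.4%) in the subset, against 12.1% of all genes. PPP1R14B, PTPRA and PTPRCAP overlapped there, with PPP1R14B at 0.33 (limma adjusted p = 0.541), PTPRA at 0.40 (0.375) and PTPRCAP at 0.44 (0.387).

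**Figure D5:**
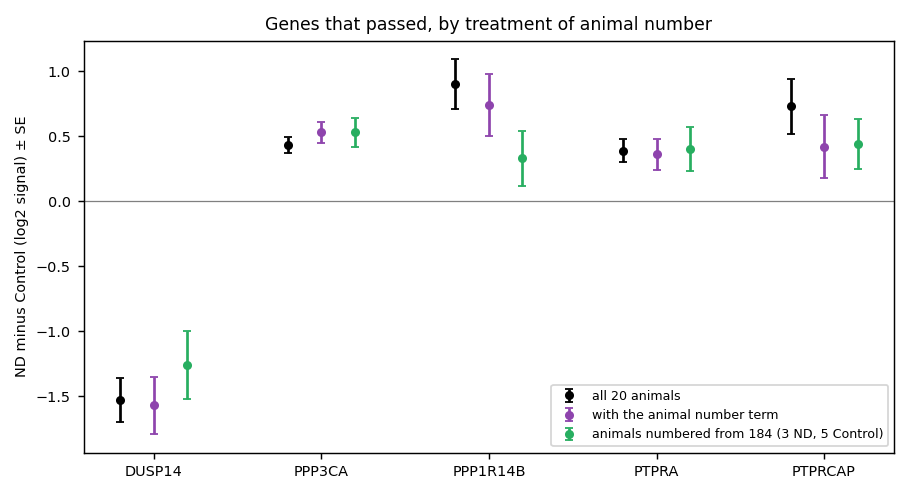
Difference between ND and Control animals (log2 signal ± SE, y axis) for the 5 genes that passed, from all 20 animals, with the animal number term, and from the 3 ND and 5 Control animals of the higher-numbered subset. DUSP14 and PPP3CA keep differences of at least 1.26 below and 0.43 above 0, and PPP1R14B is at 0.90, 0.74 and 0.33.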

How the data were processed

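Kidney RNA of 20 pigs (10 ND, 10 Control) was measured on 1-colour Affymetrix arrays, with groups and animal numbers read from the sample titles. Per the labels' protocols, 250 ng of total RNA extracted with TRIzol were made into biotin-labelled cRNA. The authors deposited values taken here as log2, a unit inferred from their range (0.882 to 16.2), and the background correction, summarization and normalization are not given in the sources used here. Array medians differed between groups, so scaling can move the balance of rises and falls.

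Of 24123 probe sets 124 controls were left out. Names came from the platform annotation (10069 probe sets with 1 symbol, 198 with several, 13732 with none). Of the 77 genes 76 matched the RefSeq table by Entrez ID, and 0 symbols changed. Differences were tested with limma 3.58.1 (lmFit, eBayes) in R 4.3.3, with no covariate. In simulated data for 23999 probe sets, limma recovered 38.8% of 1.41-fold, 82.1% of 2-fold and 98.5% of 4-fold changes, and 15 of 161 calls were false. Those changes were put into 67, 67 and 66 of the brighter probe sets, with independent normal noise. Differences in array median and animal number were not simulated, so the rates need not hold for the real comparison. Permutation tests used 100000 resamples. The number of arrays limits the precision.

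The genes, lists and tests were chosen with earlier results of these data known. The naming rule took every gene that passed, in each family the gene with the smallest p that did not pass, and, where measured, a fixed set of which MAPK3, MAPK8, MAPK14, DUSP1, DUSP6, PPP1CA, PPP2CA, PPP3CA and PTPRC are reported here, which gave 23 genes. Other genes of the 77 that are named were chosen after their values were seen. From each pathway list the rule took up to 3 genes with the smallest p. JUN, ETV5, FYN and NR3C1 were added after their values were seen. Alternatives were median and quantile scaling, leaving out probe sets not above background on at least 10 arrays, an intensity trend in eBayes, array weights, the mean over a gene's probe sets, animal number, stricter thresholds and leaving out single animals. Tool versions for permutation and tables were Python 3.11.15 and scipy 1.17.1.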

Additional observations from a re-analysis of the deposited data

Results flagged for a closer look

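In 8 of the 46 groups of 10 animals formed by the 23 genes named by rule, 1 animal stood farther from the rest than Dixon's 95% limit for the gap over the range, which chance passes in about 1 group in 20. PPP1R14B was highest in ND_47, at 9.55, with the next ND animal at 8.44. MAP2K6 was highest among ND animals in ND_22, at 3.66, with the next at 3.02. PPP3CC was lowest among ND animals in ND_194, at 6.29, with the next at 7.15. In the Control group Control_156 was lowest for MAPKAP1 (7.41, next 7.93) and for MAP4K4 (6.22, next 6.78). Control_184 was highest for PPP6C (10.64, next 10.44) and for MAPK8 (2.35, next 2.20), the last below background. PTPRC was highest among Control animals in Control_02, at 3.74, with the next at 3.39.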

How the results depend on the processing

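Over all probe sets 1712 changed. That count was 8789 with a common array median, 505 with the animal number term, 57 in the higher-numbered subset of 3 ND and 5 Control animals, 619 at an adjusted p under 0.01, 219 with a minimum fold of 1.2, and 1295 to 2303 as each animal was left out. Of the 77 genes 4 were higher and 1 lower. Higher genes numbered 7 with array weights, 1 with the animal number term, 0 in the higher-numbered subset, 2 at an adjusted p under 0.01, 0 with a minimum fold of 1.2 and 3 to 6 as each animal was left out. In the same order, 5.87%, 0.872%, 0.148%, 1.91%, 0.547% and 3.93% to 6.40% of all genes were higher. Lower genes numbered 11 with a common array median, 2 with the filter on dim probe sets, with array weights and with the animal number term, 0 in the higher-numbered subset, and 1 to 2 as each animal was left out (2 without Control_134, Control_187, Control_199, ND_86, ND_193 or ND_194). Lower among all genes were 24.3% with a common median, 6.31% with the dim filter, 5.59% with array weights and 1.91% with the number term. The share was 0.177% in the subset and 3.61% to 5.45% as each animal was left out. Some genes changed sign: MAPK8 (-0.06 with a common array median, -0.01 with array weights, -0.04 in the subset), DUSP6 (-0.03 with that scaling, -0.13 with probe set means, -0.05 to 0.20 as each animal was left out), PPP3CC (-0.17 with the number term, -0.16 in the subset), PTPRC (-0.06 and -0.02 in those fits) and MAP4K4 (0.61 over all animals, -0.07 in the subset). The causes were not tested. Dim-filtered data held no value for MAP2K6, MAP3K1 and MAPK8. For the 23 genes named by rule, 626 values under the alternatives kept direction and side of the threshold, 23 gained and 23 lost their call, and 15 changed sign. No paired analysis was possible because the groups share no animal number.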
